A study of Homo sapiens with 4 samples.

Results

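The genes of cholesterol and fatty acid synthesis that SREBP transcription factors control were compared between C28/I2 cells given FABP4 and C28/I2 cells given DMSO. They are 31 named genes, all found by their symbol among the 19215 genes of the deposited table, and all 31 were among the 12490 genes tested. C28/I2 is an established line of immortalised human chondrocytes, grown here in medium with 10% fetal bovine serum. Bulk RNA was sequenced from 2 libraries of cells kept for 48 h with 25 ng/mL of FABP4, a lipid carrier secreted by adipocytes, and from 2 libraries of cells kept for 48 h with 0.5% DMSO. Whether DMSO was also added to the FABP4 wells is not in the labels, so the protein and a lack of solvent cannot be told apart. Separate cultures are not named for the replicates either: p-values rest on the spread between these libraries alone, which may be technical. In bulk RNA, fewer cells that express a gene and less of its RNA per cell cannot be told apart.

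SREBP proteins are made as membrane precursors of the endoplasmic reticulum. When sterols run low, SCAP escorts the precursors to the Golgi, where proteases free the part that enters the nucleus; INSIG proteins hold SCAP back when sterols are plentiful. The product of SREBF2 mainly drives cholesterol synthesis and that of SREBF1 mainly fatty acid synthesis, and many of their targets also carry CCAAT boxes, which the factor NF-Y binds.

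The promoters of 5 of the genes are shown because they carry the motifs through which this control is known to act: a sterol regulatory element in SREBF2, an E-box in INSIG1, CCAAT boxes in MVK and NSDHL, which held the most copies, and a CCAAT box in TM7SF2, the member with the highest log2 fold change. The sequences are RefSeq's, from GRCh38.p14, all on the plus strand and all upstream of a start that RefSeq annotates. By the gene starts of GENCODE 29, the MVK stretch lies inside the gene, and the INSIG1 and NSDHL stretches reach past the start. Capitals mark each match to TCACNCCAC, CACGTG or CCAAT on either strand (CCAAT on the minus strand reads ATTGG). In NSDHL a forward and a reverse CCAAT match overlap.
SREBF2, chr22:41832962-41833013: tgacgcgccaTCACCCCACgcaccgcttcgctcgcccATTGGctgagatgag
INSIG1, chr7:155297698-155297838: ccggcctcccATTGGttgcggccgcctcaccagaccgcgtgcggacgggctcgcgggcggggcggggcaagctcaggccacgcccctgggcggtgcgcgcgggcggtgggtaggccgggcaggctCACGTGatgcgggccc
MVK, chr12:109573574-109573762: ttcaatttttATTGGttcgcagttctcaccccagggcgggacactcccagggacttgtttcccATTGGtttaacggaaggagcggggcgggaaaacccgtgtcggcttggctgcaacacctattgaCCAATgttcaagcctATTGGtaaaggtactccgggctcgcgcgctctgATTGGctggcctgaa
NSDHL, chrX:152830825-152830993: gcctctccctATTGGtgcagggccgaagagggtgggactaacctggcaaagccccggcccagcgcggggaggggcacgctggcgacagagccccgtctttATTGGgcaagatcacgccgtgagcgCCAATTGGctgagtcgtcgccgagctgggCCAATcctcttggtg
TM7SF2, chr11:65111788-65111812: ccgagcgccgATTGGctggtgtgct

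RefSeq windows from 250 bases before to 50 after the start were at hand for 27 of the 31 genes, some with several starts, and made 38 promoters. CCAAT stood in 25 of the 38 (65.8%), against 34.7% of the 14738 promoters of tested genes and 34.6% of all 35116 promoters. CACGTG, which reads the same on both strands, stood in 4 of the 38 (10.5%), in INSIG1, LSS and SC5D, against 9.23% of the promoters of tested genes and 7.26% of all promoters. TCACNCCAC stood in the SREBF2 promoter alone of the 38 (2.63%), against 1.13% of the promoters of tested genes. These are matches of letters and not measured binding. Windows for ACAT2, FDFT1, SQLE and FASN were not used here.

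No member passed the test between FABP4 and DMSO, yet most stood slightly lower with FABP4. In limma, with p adjusted over all 12490 genes, 0 of 31 members had an adjusted p under 0.05, where 0.592% of all tested genes (74) did, 37 higher and 37 lower with FABP4, or 0.296% in each direction. With FPKM rescaled to equal totals that split became 65 higher and 115 lower, with the members still at 0 in limma. At an unadjusted p under 0.05 there were 3 lower members (FADS2, CYP51A1 and INSIG1), where 4.0% of all tested genes were lower, and 1 higher member (TM7SF2), where 5.68% were higher. The log2 fold change was below 0 in 27 of the 31 (87.1%), against 46.0% of all tested genes. Its median was -0.11 over the members and 0.01 over all tested genes, and it ran from -0.38 in FADS2 to 0.34 in TM7SF2. Members share regulators and libraries, so their common sign is a description and not a test. The limma adjusted p of the members ran from 0.221 to 0.993. The 95% intervals of 29 members lay within 1.5-fold in either direction, the exceptions being FADS2 and TM7SF2.

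Both FABP4 libraries lay below both DMSO libraries in 11 of the 31 members, where 16.1% of all tested genes did so, and above them in 2 members, where 20.7% did. The 11 were CYP51A1, MSMO1, NSDHL, EBP, DHCR7, SREBF2, INSIG1, TMEM97, ACLY, SCD and FADS2, and the 2 were TM7SF2 and HSD17B7. In the other 18 members the groups overlapped. In the authors' deposited table, 0 of the 31 had a DESeq2 q under 0.05, where 0.655% of the 18019 genes with a q did. The same deposited table gives 7 members an unadjusted p under 0.05, all lower with FABP4 (CYP51A1, FADS2, DHCR7, ACLY, SCD, SREBF2 and INSIG1), where 5.82% of its genes had one in either direction.

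**Figure D1:**
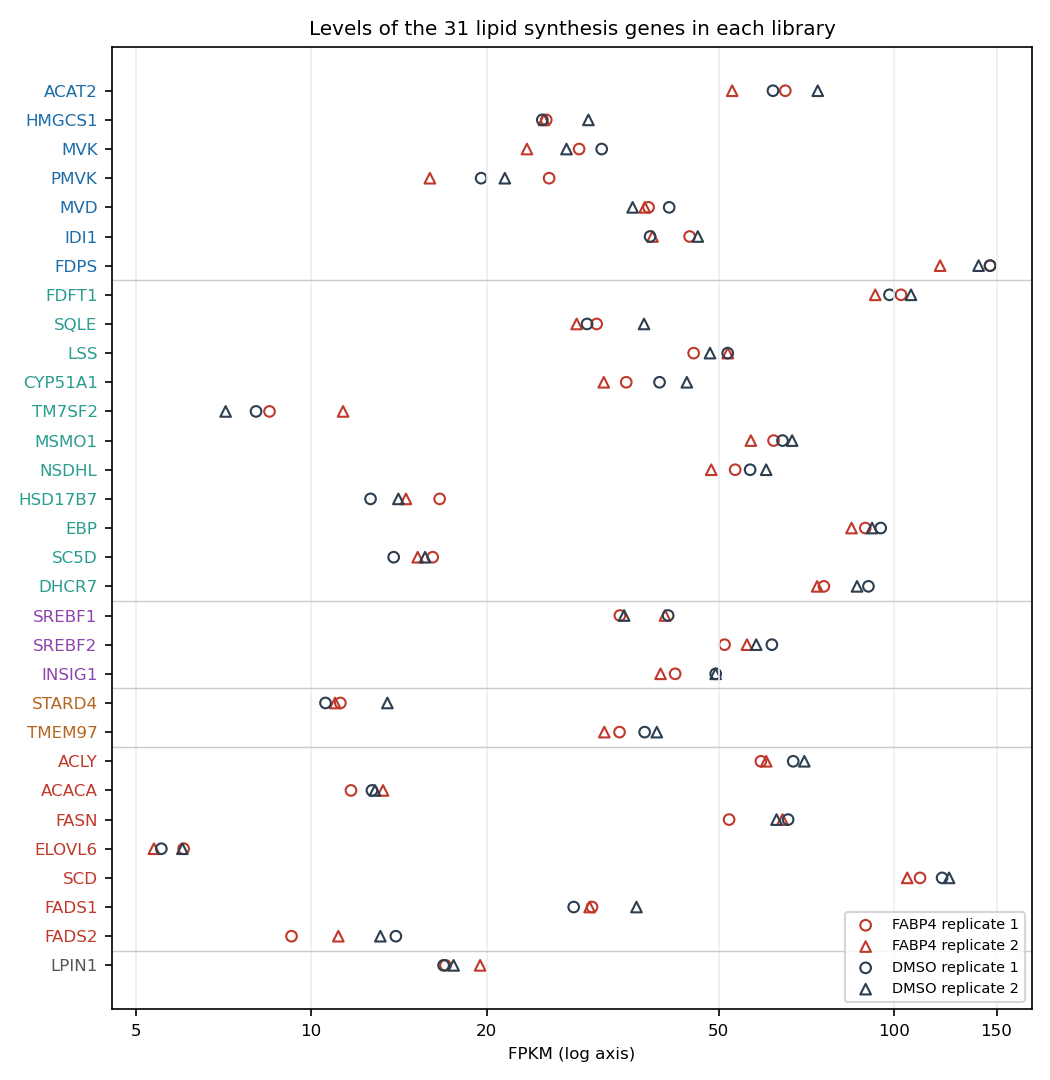
FPKM (log axis) of the 31 genes in each of the 4 libraries, with gene names coloured by pathway step; circles are replicate 1, triangles replicate 2, red FABP4 and dark DMSO. Most genes lie between 10 and 150 FPKM, and in 18 of the 31 the red and dark symbols interleave.

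Most members were among the higher genes, with a median percentile of 80.6 among tested genes in DMSO. Depth was sought in the steps between low FPKM values of single-exon genes, which came to about 11125000 to 12675000 fragments a library. These values lay only partly on whole fragments (mean cosine of the phase 0.476 to 0.55, where 1 is an exact match), so the depths are uncertain and give no order of the libraries. At such depths the lowest level of any member, in ELOVL6, rested on about 59.7 fragments per kilobase of transcript, and the highest, in FDPS, on 1830. FPKM is scaled to transcript length, so levels can be ranked between genes. In every library 28 of the 31 members reached 10 FPKM, the exceptions being TM7SF2, ELOVL6 and FADS2. The line was checked against chondrocyte markers: 4 of 15 reached 1 FPKM in some library, SOX9 at 8.81 to 11.34 FPKM and ACAN at 2.53 to 3.69 FPKM among them, while COL2A1 did not exceed 0.05 FPKM. Of 8 fibroblast markers 5 reached 1 FPKM in some library. COL1A1 stood at 793.6 to 1123.74 FPKM, COL1A2 at 409.35 to 539.23 FPKM and PDGFRB at 9.46 to 11.51 FPKM. THY1, DCN and LUM were under 1 FPKM in every library, and COL3A1 did not exceed 1.27 FPKM. PDGFRA had 3.75 and 4.3 FPKM with FABP4 against 2.88 and 2.97 FPKM (limma adjusted p = 0.315). Of 7 adipocyte markers 6 stayed under 1 FPKM in every library. Among 7 hepatocyte markers 5 did so, while SERPINA1 stood at 26.23 to 31.3 FPKM and TF at 2.37 to 3.36 FPKM. Of 7 macrophage markers 4 were under 1 FPKM in every library, PTPRC, CD14 and AIF1 among them. The other 3 had a log2 fold change below 0. The list summed to 157.5 and 149.7 FPKM with FABP4 against 176.1 and 153.7 FPKM, nearly all of it CD68, whose groups overlapped. In CSF1R and FCER1G both FABP4 libraries lay below both controls. CSF1R stood at 2.42 and 2.06 against 3.67 and 3.45 FPKM. Its change of -0.49 on the log2 scale had an adjusted p of 0.126 in limma, where the lowest of any member was 0.221. FCER1G stood at 1.55 and 1.7 against 2.76 and 1.96 FPKM, a change of -0.35 on that scale (adjusted p of 0.453 in limma). The part of these markers in the members' values was not tested.

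The 3 regulators were SREBF1 and SREBF2, which encode the factors, and INSIG1, which encodes a retention protein and is itself a sterol-responsive target. INSIG1 (gene ID 3638; chr7:155297776-155310235 in GRCh38, plus strand, by GENCODE 29) had 42.12 and 39.76 FPKM in FABP4 replicates 1 and 2 and 49.44 and 49.42 FPKM in DMSO replicates 1 and 2. Both FABP4 values were below both controls, at 0.828 times the control mean (log2 fold change -0.27, SE 0.12, limma adjusted p = 0.455). SREBF2 had 51.2 and 55.94 FPKM against 61.73 and 58.03 FPKM. The groups did not overlap, and the mean was 0.895 times that of DMSO (log2 fold change -0.16, limma adjusted p = 0.796). SREBF1 had 33.86 and 40.47 FPKM against 40.97 and 34.43 FPKM. Each SREBF1 group held a low and a high library, and the means were 37.2 ± 4.67 and 37.7 ± 4.62 FPKM (SD, n = 2; log2 fold change -0.02, limma adjusted p = 0.989).

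The 7 genes of the mevalonate segment build isoprenoid units from acetyl-CoA. All 7 log2 fold changes were below 0, with a median of -0.11, although the mean FPKM of PMVK was 1.01 times that of DMSO. In each of the 7 the groups overlapped and a gap between replicates of at least 1 group exceeded the difference of the means. ACAT2, the cytosolic thiolase that joins acetyl-CoA units, had 65.1 and 52.77 FPKM with FABP4 against 62.0 and 74.0 FPKM. It had the lowest log2 fold change of the segment (-0.21, SE 0.14, limma adjusted p = 0.728), which was -0.06 with FABP4 replicate 2 left out and -0.35 with FABP4 replicate 1 left out. Of the exonic bases of ACAT2 52.3% are overlapped by genes of the opposite strand, TCP1 among them, and its level is uncertain if reads were counted without strand. HMGCS1, the cytosolic HMG-CoA synthase, had 25.31 and 25.08 FPKM against 24.92 and 29.9 FPKM. The HMGCS1 difference came from DMSO replicate 2 alone, and without it the log2 fold change was 0.02.

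The kinases and the decarboxylase followed no common order. MVK, mevalonate kinase, had 28.82 and 23.45 FPKM with FABP4 against 31.51 and 27.42 FPKM. PMVK, phosphomevalonate kinase, had 25.6 and 15.98 FPKM against 19.57 and 21.49 FPKM. The FABP4 libraries thus bracketed the controls, and PMVK had the widest gap between replicates of any member, 0.65 on the log2 scale. MVD, the decarboxylase, had 37.92 and 37.36 FPKM against 41.14 and 35.61 FPKM. IDI1, which isomerises isopentenyl diphosphate, had 44.6 and 38.52 FPKM against 38.15 and 46.07 FPKM. Both MVD and IDI1 had a log2 fold change of -0.02. FDPS, which makes farnesyl diphosphate, was the highest member, at 146.14 and 120.0 FPKM against 146.27 and 139.72 FPKM, giving a log2 fold change of -0.11 (limma adjusted p = 0.924). Its DMSO mean lay at percentile 95.1 of the tested genes.

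**Figure D2:**
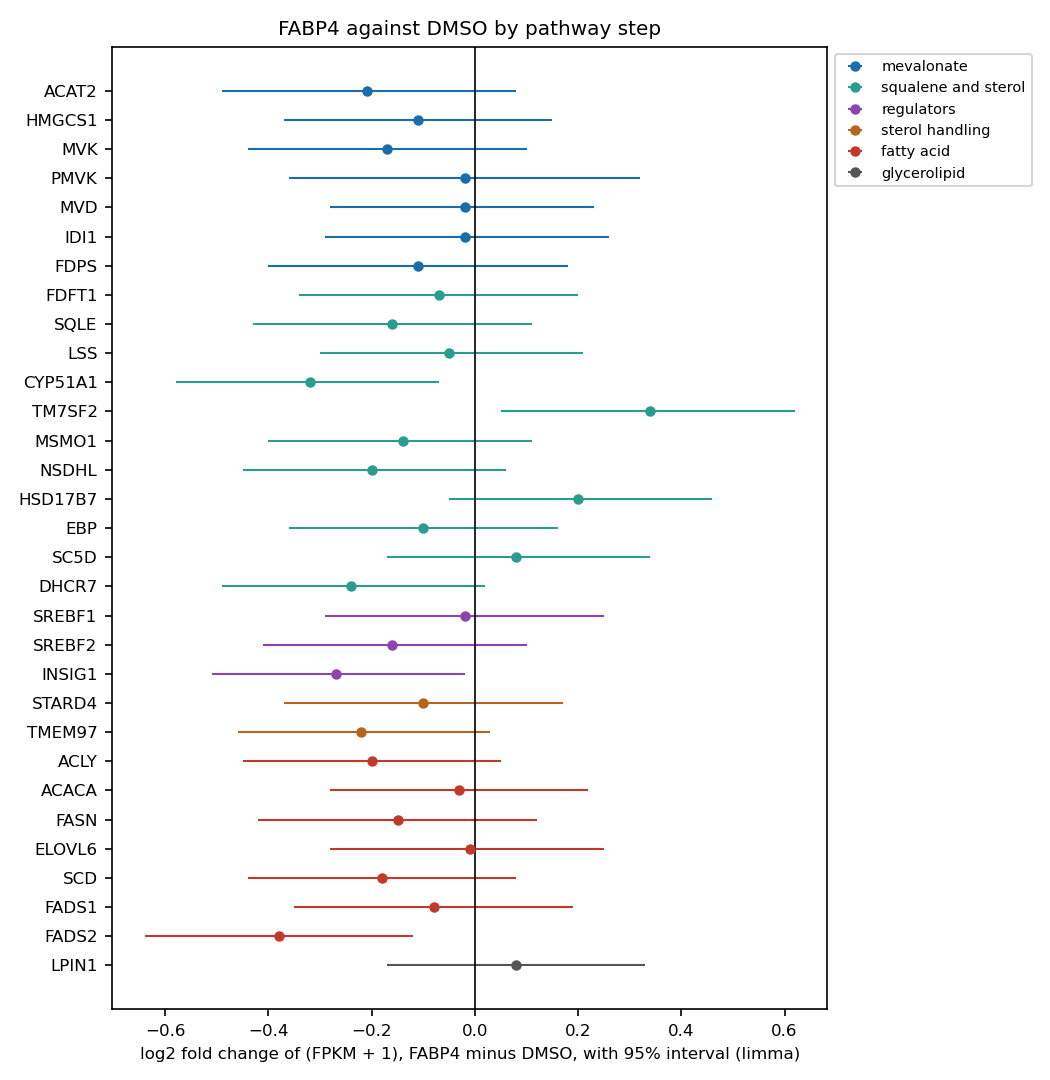
Log2 fold change of (FPKM + 1), FABP4 minus DMSO, for the 31 genes with limma's 95% interval, coloured by pathway step. Of the 31 points, 27 lie left of 0, and the interval excludes 0 in 4 genes.

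The 11 genes that turn farnesyl diphosphate into squalene and then cholesterol did not share a sign: 8 had a log2 fold change below 0 and 3 above, with a median of -0.10. CYP51A1 (gene ID 1595; chr7:92112151-92134803, minus strand), the lanosterol demethylase, had 34.72 and 31.77 FPKM with FABP4 against 39.6 and 44.11 FPKM with DMSO. The groups were apart, at 33.2 ± 2.09 and 41.9 ± 3.19 FPKM (SD, n = 2), a ratio of 0.794 (log2 fold change -0.32, SE 0.12, 95% interval -0.58 to -0.07, limma adjusted p = 0.316). Of 60 windows along the longest CYP51A1 transcript 86.7% also occur in another GENCODE gene, most of them in gene models of the same locus and 12 of them in genes elsewhere, processed copies of CYP51A1 among them, so its level is uncertain. DHCR7, the reductase of the last step, had 75.81 and 73.83 FPKM against 90.41 and 86.43 FPKM. The DHCR7 replicates agreed closely in both groups, and the ratio was 0.846 (log2 fold change -0.24, SE 0.12, limma adjusted p = 0.566).

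MSMO1 and NSDHL, which act in turn to strip methyl groups from the sterol ring, both had groups that did not overlap. MSMO1 had 62.15 and 56.81 FPKM with FABP4 against 64.38 and 66.87 FPKM. NSDHL had 53.39 and 48.58 FPKM against 56.65 and 60.35 FPKM. EBP, the sterol isomerase, was also lower in both FABP4 libraries, at 89.29 and 84.57 against 94.9 and 91.72 FPKM. The log2 fold changes of MSMO1, NSDHL and EBP were -0.14, -0.20 and -0.10, with limma adjusted p values of 0.837, 0.691 and 0.918.

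TM7SF2 and HSD17B7 were the pair with both FABP4 libraries above both controls. TM7SF2 (gene ID 7108; chr11:65111845-65116384, plus strand), a sterol reductase whose reaction LBR can also carry out, had 8.48 and 11.34 FPKM with FABP4 against 8.04 and 7.13 FPKM. FABP4 replicate 1 exceeded the controls by little. The log2 fold change was 0.34 (SE 0.14, limma adjusted p = 0.384). It came to 0.15 when FABP4 replicate 2 was left out and to 0.53 when FABP4 replicate 1 was. HSD17B7, the ketosteroid reductase that works with NSDHL, had 16.61 and 14.54 FPKM against 12.64 and 14.11 FPKM, giving a log2 fold change of 0.20 (limma adjusted p = 0.67). Of the HSD17B7 windows 18.3% also occur in another gene, its pseudogene HSD17B7P2 among them. SC5D, a sterol desaturase, had 16.16 and 15.23 FPKM against 13.85 and 15.68 FPKM, with overlapping groups (log2 fold change 0.08).

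The entry enzymes FDFT1, SQLE and LSS overlapped between groups. FDFT1, squalene synthase, had 102.83 and 92.87 FPKM with FABP4 against 98.25 and 106.96 FPKM. SQLE, squalene epoxidase and a main control point of the pathway, had 30.89 and 28.54 FPKM against 29.74 and 37.25 FPKM. The SQLE controls differed by more than the group means did (log2 fold change -0.16, limma adjusted p = 0.817). The SQLE value was -0.00223 with DMSO replicate 2 left out and -0.32 with DMSO replicate 1 left out. LSS, which closes the sterol rings, had 45.32 and 51.86 FPKM against 51.84 and 48.34 FPKM (log2 fold change -0.05).

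Of the genes of sterol handling, TMEM97, a sterol-responsive membrane protein of the endoplasmic reticulum also known as the sigma-2 receptor, had 33.81 and 31.84 FPKM with FABP4 against 37.34 and 39.18 FPKM. Its groups were apart (log2 fold change -0.22, SE 0.12, limma adjusted p = 0.609). STARD4, a carrier of sterol between membranes, had 11.22 and 10.99 FPKM against 10.58 and 13.51 FPKM, and its lowest value was a control.

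All 7 fatty acid genes had a log2 fold change below 0, from -0.38 to -0.01 with a median of -0.15, and 3 had groups that did not overlap. FADS2 (gene ID 9415; chr11:61792980-61867354, plus strand), a front-end desaturase of polyunsaturated fatty acid synthesis, had the lowest log2 fold change and the smallest limma p of the members; in the authors' deposited table CYP51A1 has the smallest p (0.00114, beside 0.00268 for FADS2). It had 9.25 and 11.13 FPKM with FABP4 against 13.97 and 13.14 FPKM with DMSO. The means were 10.2 ± 1.33 and 13.6 ± 0.587 FPKM (SD, n = 2), a ratio of 0.752. In limma the log2 fold change was -0.38 (SE 0.12, 95% interval -0.64 to -0.12), with an unadjusted p of 0.00633 and an adjusted p = 0.221. The authors' deposited table gives FADS2 a log2 fold change of -0.43 and a q of 0.194. FADS1, the desaturase encoded next to it on chromosome 11, had 30.33 and 30.04 FPKM against 28.21 and 36.15 FPKM. The FADS1 controls enclosed both FABP4 values (log2 fold change -0.08, limma adjusted p = 0.947). The 2 loci overlap on opposite strands in GENCODE 29, and 4.89% of the exonic bases of FADS2 are shared with other genes; strandedness is not given in the sources used here.

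ACLY, which supplies cytosolic acetyl-CoA to both pathways, had 59.11 and 60.36 FPKM with FABP4 against 67.16 and 70.18 FPKM. SCD, the desaturase that makes oleate, had 110.86 and 105.38 FPKM against 120.95 and 124.34 FPKM. Both genes had close replicates and separate groups, with log2 fold changes of -0.20 (limma adjusted p = 0.678) and -0.18 (limma adjusted p = 0.75). FASN, fatty acid synthase, had 52.13 and 64.39 FPKM against 65.82 and 62.88 FPKM. FABP4 replicate 1 alone was low, and without it the FASN log2 fold change was 0.00125. ACACA, the acetyl-CoA carboxylase that commits carbon to fatty acids, had 11.7 and 13.28 FPKM against 12.71 and 12.86 FPKM. ELOVL6, an elongase, had 6.04 and 5.37 FPKM against 5.53 and 6.01 FPKM. LPIN1, a phosphatidate phosphatase of glycerolipid synthesis, had 17.0 and 19.49 FPKM against 16.87 and 17.55 FPKM. ACACA, ELOVL6 and LPIN1 had log2 fold changes of -0.03, -0.01 and 0.08, all with overlapping groups.

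**Figure D3:**
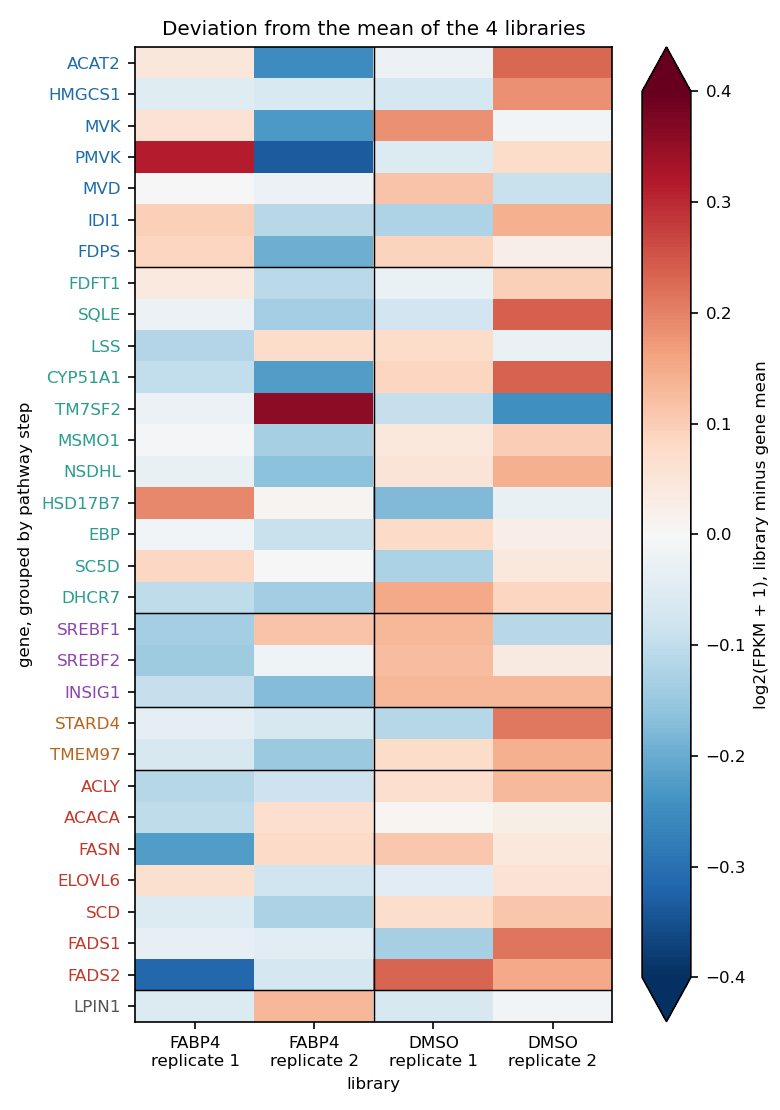
Deviation of log2(FPKM + 1) in each library from the gene's mean over the 4 libraries, with genes in rows by pathway step. Blue prevails in FABP4 replicate 2 and red in DMSO replicate 2, and several genes differ as much within a group as between groups.

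Summed over the 31 members, the level was 1378 and 1312 FPKM in FABP4 replicates 1 and 2 and 1455 and 1491 FPKM in DMSO replicates 1 and 2, or 0.218%, 0.221%, 0.241% and 0.256% of all FPKM. The sum is governed by the highest genes, and it is a description. The difference of the means was smaller than a gap between replicates in 19 of the 31 members (61.3%), as in 74.2% of all tested genes. Its median size was 0.14 on the log2 scale, beside median replicate gaps of 0.13 with FABP4 and 0.10 with DMSO. Over all tested genes these 3 values were 0.10, 0.12 and 0.14.

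The gaps between replicates went with base composition. Across the 31 genes, which are not independent replicates, the GC content of the longest transcript ran against the difference DMSO replicate 2 minus 1 (Spearman rho -0.73, Pearson r -0.75) and less so against FABP4 replicate 1 minus 2 (rho -0.37, r -0.31). Over 12149 tested genes with a value, the rho values were -0.60 and -0.18. Of the 15 members with a GC content under 50.1%, 14 were higher in DMSO replicate 2 than in replicate 1, with HMGCS1, IDI1, SQLE and STARD4 among them. Of the 16 others 5 were. The log2 fold change between FABP4 and DMSO showed no such trend (rho -0.03, r 0.03), and its median was -0.10 in the GC-poor members and -0.13 in the others. With a correction for GC content, chosen after seeing the data, 0 members passed in limma, where 75 of the 12149 genes did.

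**Figure D4:**
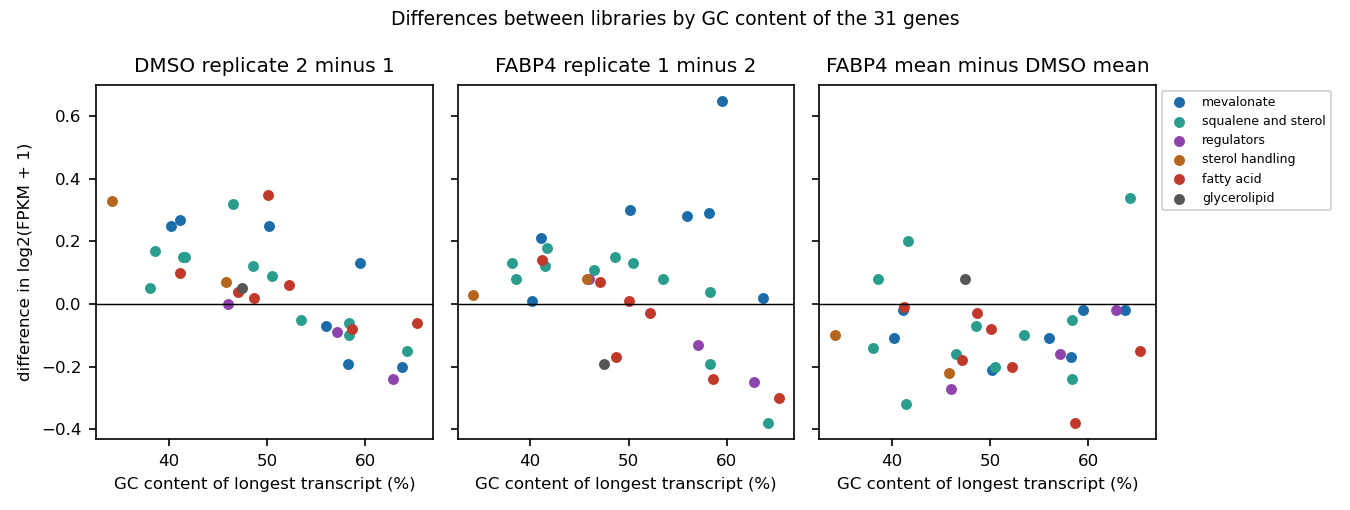
Difference in log2(FPKM + 1) against the GC content of the longest transcript for the 31 genes, coloured by pathway step: between DMSO replicates, between FABP4 replicates and between the group means. Most GC-poor genes lie above 0 and most GC-rich genes below in the first panel, with exceptions, while the third shows no trend.

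None of the genes around these pathways passed the test either, and they lacked the common sign. In each of 5 further lists 0 tested genes had a limma adjusted p under 0.05, and an unadjusted p under 0.05 was found for SOAT1, NR1H3 and MID1IP1. Other isoprenoid and sterol enzymes had 7 of 11 tested genes below 0, and their median log2 fold change was -0.07. GGPS1, which makes geranylgeranyl diphosphate, had 12.87 and 10.98 FPKM with FABP4 against 10.17 and 9.7 FPKM (limma adjusted p = 0.569). The genes of SREBP processing and degradation had 5 of 12 below 0 (median 0.02), and RNF145, a ubiquitin ligase gene, had 29.45 and 27.76 FPKM against 30.22 and 36.03 FPKM. Sterol uptake and transport had 5 of 12 below 0 (median 0.04), and OSBPL2, an oxysterol-binding protein gene, had 8.08 and 7.77 FPKM against 6.7 and 7.17 FPKM.

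Among LXR targets and genes of efflux and esterification, 5 of 9 tested were below 0 (median -0.01). SOAT1, which esterifies cholesterol for storage, had 15.83 and 15.31 FPKM with FABP4 against 18.1 and 24.7 FPKM, giving a log2 fold change of -0.42 (SE 0.14, limma adjusted p = 0.224). NR1H3, the oxysterol receptor LXR alpha, had 4.18 and 3.75 FPKM against 2.6 and 3.39 FPKM, giving a log2 fold change of 0.32 (limma adjusted p = 0.452). The SOAT1 groups and the NR1H3 groups did not overlap. Other fatty acid and glycerolipid genes had 14 of 27 below 0 (median -0.001). MID1IP1, an activator of acetyl-CoA carboxylase, stood at 2.1 and 2.28 FPKM against 1.37 and 1.26 FPKM, above both controls but low (log2 fold change 0.46, SE 0.14, limma adjusted p = 0.193). HSD17B12, a reductase of fatty acid elongation, had 28.65 and 24.62 FPKM against 30.77 and 32.84 FPKM (limma adjusted p = 0.532). The difference between the members and these lists was not tested.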

How the data were processed

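The authors deposited 1 table with FPKM per library, fragment counts scaled to transcript length and library size. The deposited table also holds the authors' DESeq2 results, a log2 fold change with its p-value and q-value; its sign was read against the FPKM, and positive is higher with FABP4. Bowtie2 2.2.5, RSEM 1.2.12, DESeq2 1.4.5 and GRCh38.p13 are named without roles, per the submitters' processing notes. Values were taken as log2(FPKM + 1), which understates changes of low genes, for genes reaching 1 FPKM in 2 or more libraries. All 4 libraries entered a fit in limma 3.58.1 (R 4.3.3) with the condition alone and variance moderation along the mean, two-sided, with Benjamini-Hochberg adjustment over 12490 genes at 0.05. The fit was tested on simulated data. Transcript GC content, overlaps and shared 50-base windows come from GENCODE 29. The members, the lists and the alternatives were chosen with earlier results of these data known. Named are all 31 members and, of each further list, called genes or else up to 2 with the smallest p; some of these are not reported here.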

Additional observations from a re-analysis of the deposited data

How the results depend on the processing

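With every library kept, 0 members passed in limma under each alternative below except crossed replicate numbers, and 27 of 31 stayed below 0. With a library left out 21 to 24 members were below 0, and the members' median log2 fold change was -0.14 to -0.085. It was -0.156 with FPKM rescaled to equal totals, where the median of all genes was -0.027. Over all tested genes 74 passed (37 higher, 37 lower), but 180 with equal totals (65 higher, 115 lower), 0 without the filter on low values in limma, 47 with the replicate block, and 49 to 150 with a library left out. The replicate numbers share only a number: same-numbered libraries deviated with a correlation of -0.119 over the tested genes. With the numbers crossed, a block chosen after seeing the data, 418 genes passed, 1 of them a member (FADS2) and 1 of them a gene of the further lists, of which 0 to 1 passed with a library left out.

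Single members turned sign only when a library was left out. The log2 fold change then ran from -0.24 to 0.02 in HMGCS1, -0.34 to 0.31 in PMVK, -0.13 to 0.08 in MVD, -0.15 to 0.12 in IDI1, -0.25 to 0.03 in FDPS, -0.14 to 0.00441 in FDFT1, -0.14 to 0.05 in LSS, -0.15 to 0.1 in SREBF1, -0.26 to 0.06 in STARD4, -0.12 to 0.05 in ACACA, -0.3 to 0.00125 in FASN, -0.09 to 0.06 in ELOVL6, -0.25 to 0.09 in FADS1 and -0.02 to 0.17 in LPIN1. The cause was not tested. ACAT2, MVK, SQLE, MSMO1, NSDHL, EBP, SREBF2, TM7SF2, HSD17B7 and SC5D kept their sign but moved by more than 1.5 times with some library left out. With 2 libraries a group, changes well under 1.5-fold cannot be told from no change.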

Other observations

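The authors' deposited table and limma on log2(FPKM + 1) gave opposite signs for 1 of the 31 members, PMVK, with log2 fold changes of 0.08 in the authors' deposited table and -0.02 in limma. The gap in size was widest for HSD17B7, at 0.33 in the authors' deposited table and 0.20 in limma, followed by SREBF1, at -0.12 in the authors' deposited table and -0.02 in limma.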
